A study of Mus musculus with 7 samples.

Results

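The genes that send, receive and block Wnt signals were followed across chromatin accessibility maps of the embryonic mouse gut. The set holds 47 named genes: 19 Wnt ligands, 12 receptors (10 frizzled genes with Lrp5 and Lrp6), 4 R-spondins, 8 secreted antagonists (Dkk1 to Dkk3, Sfrp1, Sfrp2, Sfrp4, Sfrp5 and Wif1) and the 4 nuclear TCF/LEF factors. Accessible peaks of 7 ATAC-seq libraries on chromosomes 1 to 19 and X were merged into 326695 regions, and each region went to the protein-coding gene whose body lay closest, up to 100 kb away. Of the 264687 regions given to any of 20475 genes, 913 belonged to these 47 genes, and every one of the 47 had at least 3. The rule for the set uses gene names and no measured value, but the set was proposed with earlier results of these libraries known.

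ATAC-seq marks open chromatin by the places where a transposase can insert sequencing adapters, and a peak is a stretch with many insertions. Each group was a single library, so no test between groups was possible, and the differences below are differences between libraries. The E13 stomach and E13 intestine came from ShhCre; R26YFP/+ embryos (E13.5 in the protocol), in which Cre driven by the Sonic hedgehog gene labels the gut epithelium with YFP; the organs were broken down to single cells and sorted, with several embryos pooled. The E16 forestomach, hindstomach, proximal small intestine and colon (E16.5 in the protocol) came from embryos of the same genotype, and their epithelium was peeled off after Dispase for the forestomach, after 10 mM EDTA for the hindstomach and after 5 mM EDTA for the small intestine and colon. The remaining library, labelled as a Sox2 KO stomach at E16, lacks the transcription factor Sox2 by its label. That label gives neither the knockout allele, nor the part of the stomach, nor how its cells were obtained. SOX2 is a factor of the foregut, and the knockout library is compared here with both wild-type stomach parts.

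Wnt proteins are secreted lipid-modified signals that bind a frizzled receptor together with LRP5 or LRP6 and stabilise β-catenin, which then works with the TCF/LEF factors on DNA. R-spondins raise the number of receptors on the cell surface, DKK1 blocks the LRP coreceptors, and SFRP proteins and WIF1 bind the ligands themselves. In the gut, Wnt signals from the epithelium and from the underlying mesenchyme maintain the stem cells of the intestinal crypts, and low Wnt activity accompanies the formation of the stomach from the foregut.

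The clearest pattern among the 47 genes lay at the gene starts. Of 7 libraries, the knockout stomach alone had a peak within 1 kb of the start of Wnt3, Wnt3a, Wnt6, Wnt10b and Rspo1. The 250 bases before each of these starts are printed here from the RefSeq promoter table (GRCm38.p6), because the peaks lie on or beside them, with every CpG dinucleotide in capitals. Wnt8b, the 1 gene of the set with no start peak in any library, and Fzd7, with a start peak in all 7, follow for contrast. The genes to print were picked after their peaks were known.
Wnt3: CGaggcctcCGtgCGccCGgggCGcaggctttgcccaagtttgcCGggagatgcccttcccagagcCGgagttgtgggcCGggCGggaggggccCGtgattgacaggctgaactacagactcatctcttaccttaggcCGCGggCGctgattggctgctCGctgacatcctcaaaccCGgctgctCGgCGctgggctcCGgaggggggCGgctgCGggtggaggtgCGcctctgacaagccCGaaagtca
Wnt3a: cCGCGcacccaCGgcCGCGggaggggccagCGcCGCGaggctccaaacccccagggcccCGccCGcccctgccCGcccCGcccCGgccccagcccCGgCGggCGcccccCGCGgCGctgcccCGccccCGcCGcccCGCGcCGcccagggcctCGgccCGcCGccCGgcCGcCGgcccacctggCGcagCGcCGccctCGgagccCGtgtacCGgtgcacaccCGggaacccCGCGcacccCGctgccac
Wnt6: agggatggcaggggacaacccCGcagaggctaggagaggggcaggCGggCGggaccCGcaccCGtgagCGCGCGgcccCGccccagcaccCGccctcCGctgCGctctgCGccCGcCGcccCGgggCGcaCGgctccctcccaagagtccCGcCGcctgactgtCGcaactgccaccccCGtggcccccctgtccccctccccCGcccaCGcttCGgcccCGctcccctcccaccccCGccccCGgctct
Wnt10b: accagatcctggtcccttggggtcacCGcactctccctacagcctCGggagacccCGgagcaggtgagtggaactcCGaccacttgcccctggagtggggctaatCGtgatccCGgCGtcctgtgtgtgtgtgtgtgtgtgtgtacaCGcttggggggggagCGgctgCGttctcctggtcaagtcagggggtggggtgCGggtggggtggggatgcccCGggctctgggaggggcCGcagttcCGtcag
Rspo1: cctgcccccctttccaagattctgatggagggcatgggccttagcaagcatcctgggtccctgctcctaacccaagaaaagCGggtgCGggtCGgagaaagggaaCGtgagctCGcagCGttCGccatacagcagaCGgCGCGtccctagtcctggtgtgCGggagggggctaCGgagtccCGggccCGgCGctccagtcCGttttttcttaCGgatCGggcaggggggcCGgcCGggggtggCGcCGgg
Wnt8b: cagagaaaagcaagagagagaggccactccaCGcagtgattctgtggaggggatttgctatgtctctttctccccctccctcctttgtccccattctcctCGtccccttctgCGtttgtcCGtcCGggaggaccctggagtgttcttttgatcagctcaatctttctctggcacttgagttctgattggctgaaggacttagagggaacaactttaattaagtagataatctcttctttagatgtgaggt
Fzd7: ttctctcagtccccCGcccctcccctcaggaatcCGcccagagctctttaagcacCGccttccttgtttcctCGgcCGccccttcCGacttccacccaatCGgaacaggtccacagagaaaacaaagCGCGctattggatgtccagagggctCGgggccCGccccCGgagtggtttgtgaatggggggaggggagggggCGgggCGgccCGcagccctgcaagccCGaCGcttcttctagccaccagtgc
These stretches are chr11:103773925-103774174 on the plus strand for Wnt3, chr11:59290752-59291001 on the minus strand for Wnt3a, chr1:74771642-74771891 (plus) for Wnt6, chr15:98778151-98778400 (minus) for Wnt10b and chr4:124986180-124986429 (plus) for Rspo1. The Wnt8b stretch is chr19:44493222-44493471 (plus) and that of Fzd7 chr1:59481897-59482146 (plus). They held 22, 41, 28, 14 and 22 CpG in the 5 genes with a start peak in the knockout alone, 5 in Wnt8b and 17 in Fzd7.

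The 47 genes had many accessible regions around them. The median was 15 regions per gene over all libraries, against 7 for all protein-coding genes with a region, and the range ran from 3 (Wnt8a, an early embryonic ligand) to 82 (Tcf7l2, the main TCF factor of the intestinal epithelium). Member regions numbered 264 in the E13 stomach, 196 in the E13 intestine, 234 in the forestomach, 327 in the hindstomach, 398 in the knockout stomach, 241 in the small intestine and 308 in the colon. As a share of all regions at genes, that was 0.425% in the knockout (95% Wilson interval 0.385 to 0.468%, counting error only) and between 0.293% (colon, 0.262 to 0.327%) and 0.351% (hindstomach, 0.315 to 0.391%) in the other libraries. The knockout thus stood above the other 6 in member regions although the colon list was longer, with 136859 deposited peaks against 107138.

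**Figure D1:**
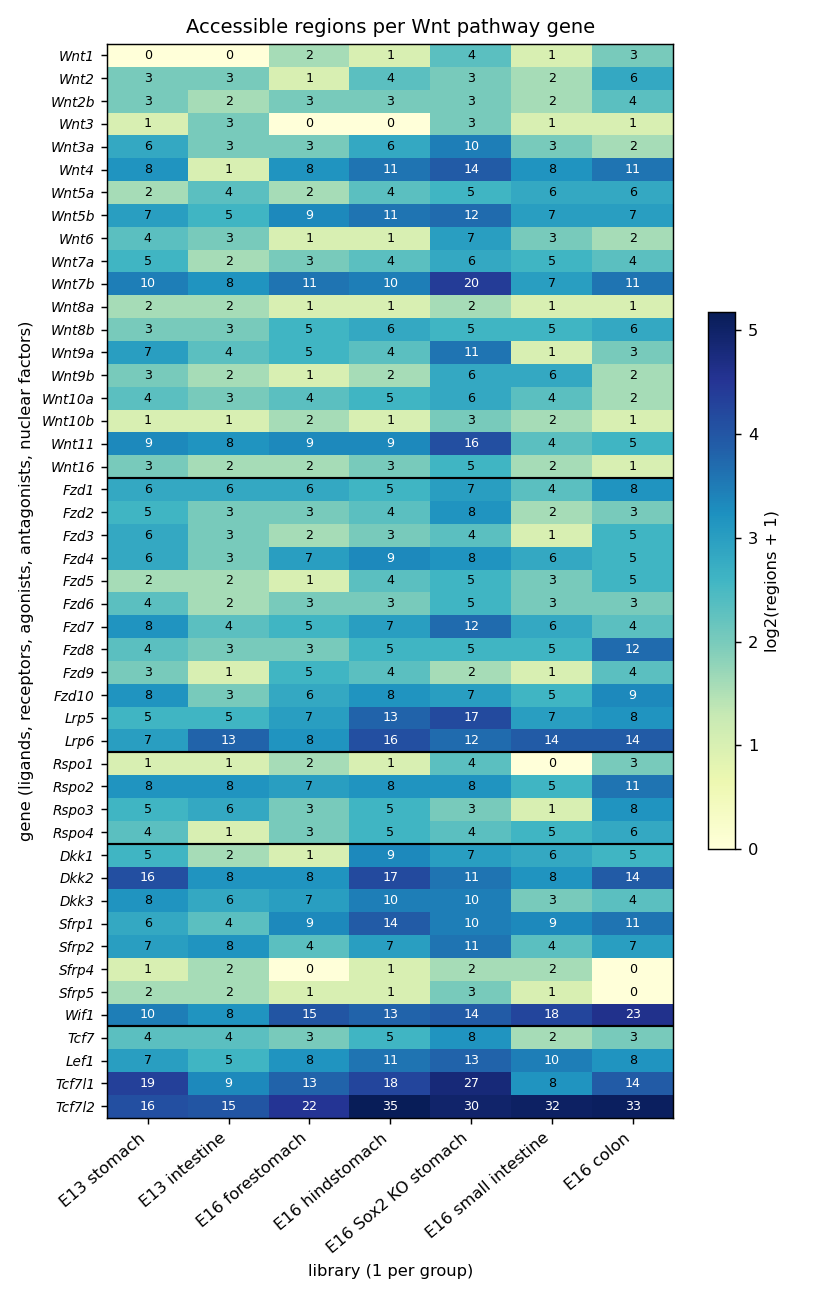
Accessible regions per Wnt pathway gene (rows, grouped as ligands, receptors, R-spondin agonists, antagonists and nuclear factors) in each of the 7 libraries (columns, 1 library per group). The number in each cell is the count of regions and the colour is log2(regions + 1); Tcf7l2 is the darkest row, and 22 of 47 genes have their highest count in the knockout stomach alone.

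Gene by gene, the knockout stomach held the most regions, ties left out, for 22 of 47 genes (46.8%), against 19.2% of the 16607 protein-coding genes with at least 3 regions. The colon led for 9 genes (19.1%, against 25.8% of all genes). The hindstomach led for 6 (12.8%, against 9.92%), the forestomach for 1 (2.13%, against 2.23%) and the E13 stomach for 1 (2.13%, against 4.38%), which is near the shares of all genes. Among the 19 ligands, the summed count was 141 in the knockout and between 59 and 86 in the other libraries. The 4 R-spondin genes had their highest sum, 28, in the colon, and the antagonists theirs in the hindstomach (72, against 68 in the knockout). The receptors summed to 92 and the nuclear factors to 78 in the knockout, the highest of the 7 libraries for each.

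Most of these regions were seen in few libraries. Of the 913, 490 (53.7%, against 53.4% of all regions at genes) were found in 1 library and 33 (3.61%, against 5.26%) in all 7. Of those 33, 48.5% lay within 1 kb of a gene end. The knockout had 136 regions of its own (34.2% of its member regions, against 27.2% of its regions at all genes), and the colon 122 (39.6%, against 39.7%). The forestomach had 26 (11.1%, against 13%).

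Before the gene-by-gene results, the labels were checked against marker genes. Of 10 epithelial markers (Epcam, Cdh1, keratins and others), all 10 had a start peak in 6 libraries and 9 in the colon. Of 14 mesenchymal markers, 9 had a start peak in the knockout, 9 in the E13 intestine, 6 in the E13 stomach, 6 in the hindstomach, 4 in the forestomach, 4 in the small intestine and 2 in the colon. Summed regions of the mesenchymal markers were 96 in the knockout and 55 to 75 in the other libraries. Those of the epithelial markers were also highest in the knockout, with 108 against 63 to 91. The blood and immune, endothelial and neural lists had their highest sums in the colon. Of all protein-coding genes, 69.5% had a start peak in the knockout and 53.7 to 66.1% in the other libraries. Of the other lists, start peaks were found at 4 of 7 blood and immune markers in the knockout (2 or 3 elsewhere), 2 of 5 endothelial markers (0 to 3) and 5 of 6 markers of neural crest and neurons (1 to 4). Glandular stomach markers had 4 of 5 start peaks in the knockout and in both wild-type stomach parts, squamous markers 1 of 3 in each of these libraries, and intestinal markers 4 of 5 in the knockout, 2 in the hindstomach, 0 in the forestomach and 3 in each of the other 4 libraries, the E13 stomach included. Summed regions of the glandular markers were 19 in the forestomach and 22 in the hindstomach, and those of the squamous markers 8 and 11. The glandular and squamous lists thus did not separate the stomach parts. Wnt ligands and antagonists are also made by mesenchyme, so these values stand beside every knockout result below; their part in those results was not tested. In a bulk library, more cells with an open site and a more open site per cell cannot be told apart. Sox2 itself (chr3:34649995-34652461) had 1 peak in its gene body in the knockout, 1 in the E13 stomach, 1 in the forestomach, 2 in the hindstomach and 0 in the other 3 libraries. The labels do not say which part of the gene was deleted, so these peaks are no check of the knockout.

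Peaks at gene starts separated the libraries more sharply than the region counts. A start peak is a peak within 1 kb of an annotated start. For 15 genes with no strand in the tables used here (among them Wnt5a, Wnt7b, Fzd2, Lrp5, Rspo2, Rspo3, Dkk3 and Sfrp1), either gene end counted. In the knockout, 46 of 47 genes had a start peak (97.9%, against 69.5% of all 21631 protein-coding genes). The E13 stomach, the E13 intestine and the hindstomach each had 34 (72.3%, against 66.1%, 63.5% and 62.4% of all genes). The forestomach had 27 (57.4%, against 58.1%). The small intestine had 21 (44.7%, against 55.8%) and the colon 20 (42.6%, against 53.7%), both below the share of all genes. With the 32 genes of known strand alone the knockout had 31 and the hindstomach 22, and the small intestine 14 and the colon 13.

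**Figure D2:**
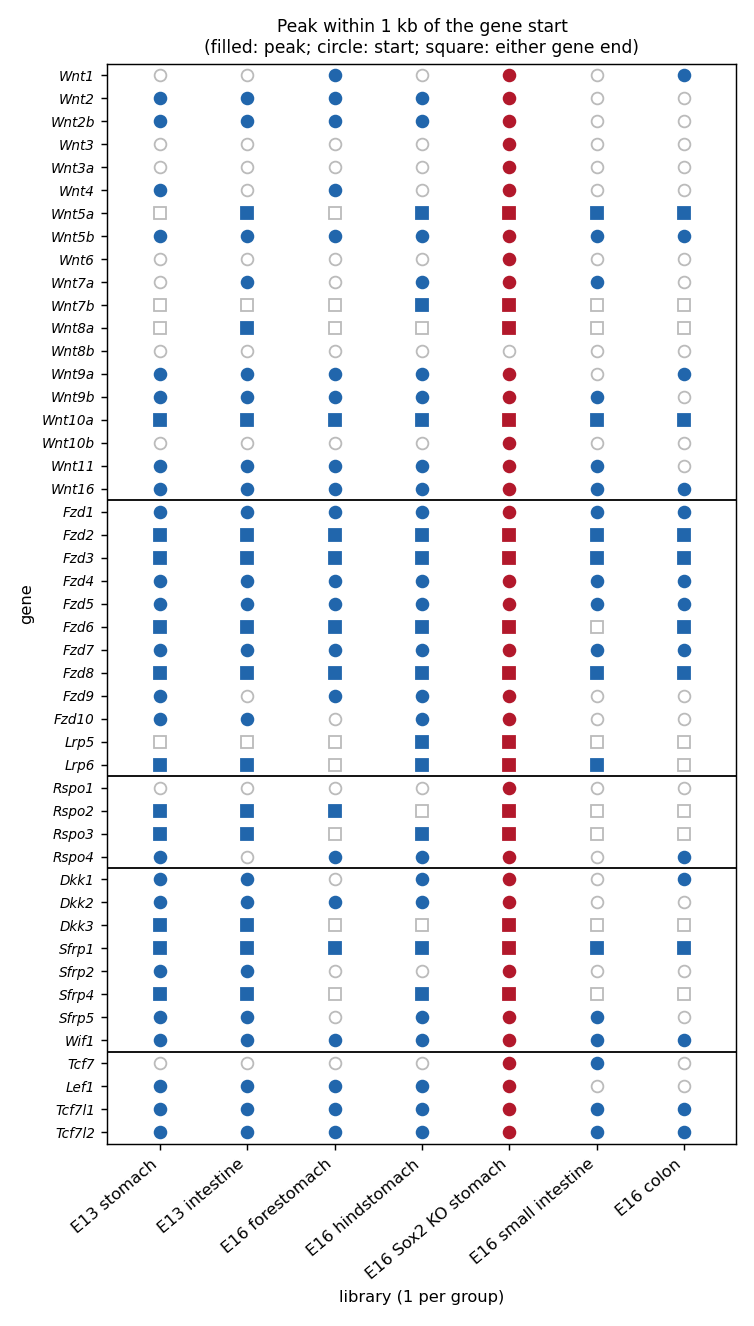
Start peaks of the 47 genes (rows) in the 7 libraries (columns); a filled symbol is a peak within 1 kb of the start, a circle a gene with a known start and a square a gene for which either end counted. The knockout column (red) is filled for 46 of 47 genes, and the small intestine and colon columns have the most open symbols.

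Receptors and ligands differed in how widely their starts were open. All 7 libraries had a start peak at 14 genes (29.8% of the set, against 44.4% of all genes). These were Fzd1, Fzd2, Fzd3, Fzd4, Fzd5, Fzd7 and Fzd8 among the receptors, Wnt5b, Wnt10a and Wnt16 among the ligands, the antagonists Sfrp1 and Wif1, and the factors Tcf7l1 and Tcf7l2. Wnt2 and Wnt2b, ligands of mesenchyme in many organs, had start peaks in both E13 libraries, both stomach parts and the knockout, and in neither the small intestine nor the colon. Dkk2 and Lef1 showed the same 5 libraries. Tcf7, the TCF1 gene, had a start peak in the small intestine and the knockout alone. Dkk3 and Sfrp2 had start peaks in the 2 E13 libraries and the knockout and in none of the 4 wild-type E16 tissues.

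The 5 genes with a start peak in the knockout alone made up 10.6% of the set, against 1.77% of all genes. No other library was alone in having a start peak at any of the 47 genes (0%, against 0.629% of all genes for the E13 stomach, 0.680% for the E13 intestine, 0.310% for the forestomach, 0.485% for the hindstomach, 0.582% for the small intestine and 1.33% for the colon). Wnt3, Wnt3a and Wnt10b are ligands of the β-catenin branch, Wnt6 is a further ligand, and Rspo1 is an agonist able to make the intestinal crypts grow. The peak at Wnt3 (chr11:103773962-103774105 as deposited) ended 70 bases before its start, inside the stretch printed above, where the gene body of Wnt9b overlaps, so its region was counted under Wnt9b. Wnt3a had a peak over its start (chr11:59290698-59290812) and another 243 bases before it (chr11:59290994-59291149). At Rspo1 the peak began 10 bases after the start (chr4:124986440-124986646). The peaks at Wnt10b (chr15:98777970-98778041) and Wnt6 (chr1:74772137-74772293) lay 109 and 245 bases after the annotated start. The gene body of Wnt6 begins farther upstream, at chr1:74754342, and that end was not counted as a start. The Wnt6 result thus holds for the start at chr1:74771892 only. The peaks were 71 to 206 bases wide. That at Wnt10b, with 71 bases, had the smallest width in the knockout list. The narrowest peak was 62 bases in the E13 intestine list and 77 (E13 stomach) to 108 (forestomach) in the remaining lists. A peak as narrow as that at Wnt10b was thus listed in no wild-type library but the E13 intestine. At Wnt1, a ligand of the embryonic brain, the knockout peak lay 114 bases before the start, whereas those of the forestomach (chr15:98789005-98789308) and the colon (chr15:98789016-98789102) lay farther before it.

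Compared with the hindstomach, the knockout had a start peak at 12 further genes (25.5%, against 8.97% of all genes): Wnt1, Wnt3, Wnt3a, Wnt4, Wnt6, Wnt8a, Wnt10b, Rspo1, Rspo2, Dkk3, Sfrp2 and Tcf7. The reverse held for none (0%, against 1.88%). Compared with the forestomach it had 19 further genes (40.4%, against 12.8%), and again none the other way (0%, against 1.45%). A gene with a start peak in the wild-type part could not count as a further gene. In the hindstomach that was 72.3% of the set and 62.4% of all genes, and in the forestomach 57.4% and 58.1%. Shares among CpG-rich starts without a wild-type peak are given below. When every list was cut to its widest peaks at the length of the shortest list, 44 of 47 genes had a start peak in the knockout, 32 in the hindstomach and 25 in the forestomach. The share over all genes was not computed for the cut lists, so these counts cannot be set beside a background.

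Starts of the Wnt genes are rich in CpG, and such starts are usually open. For 32 of the 47 genes the table gave 40 starts, with a median of 25.5 CpG in the 300 bases from 250 before to 50 after the start, against 13 over all 21045 starts. Among starts with at least 10 CpG, a class set after the values were seen, 69.7% of 33 Wnt gene starts had a peak in the E13 stomach, against 93.2% of 12060 starts of all genes. The values were 57.6% against 90.7% in the E13 intestine, 54.5% against 83.1% in the forestomach and 66.7% against 88.0% in the hindstomach. In the small intestine they were 39.4% against 79.7%, and in the colon 33.3% against 75.2%. The share was lower for the Wnt gene starts in each of the 6 wild-type libraries. In the knockout all 33 had a peak (100%, against 96.3%). Of starts in this class with no hindstomach peak, all 11 Wnt gene starts had a knockout peak, against 72.3% of 1447 starts of all genes. With no forestomach peak it was all 15, against 79.4% of 2037. Most such starts thus had a knockout peak over all genes too. With no peak in any of the 6 wild-type libraries it was all 7, against 34.7% of 458. The Wnt gene starts come from few genes, and starts of 1 gene are not independent.

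**Figure D3:**
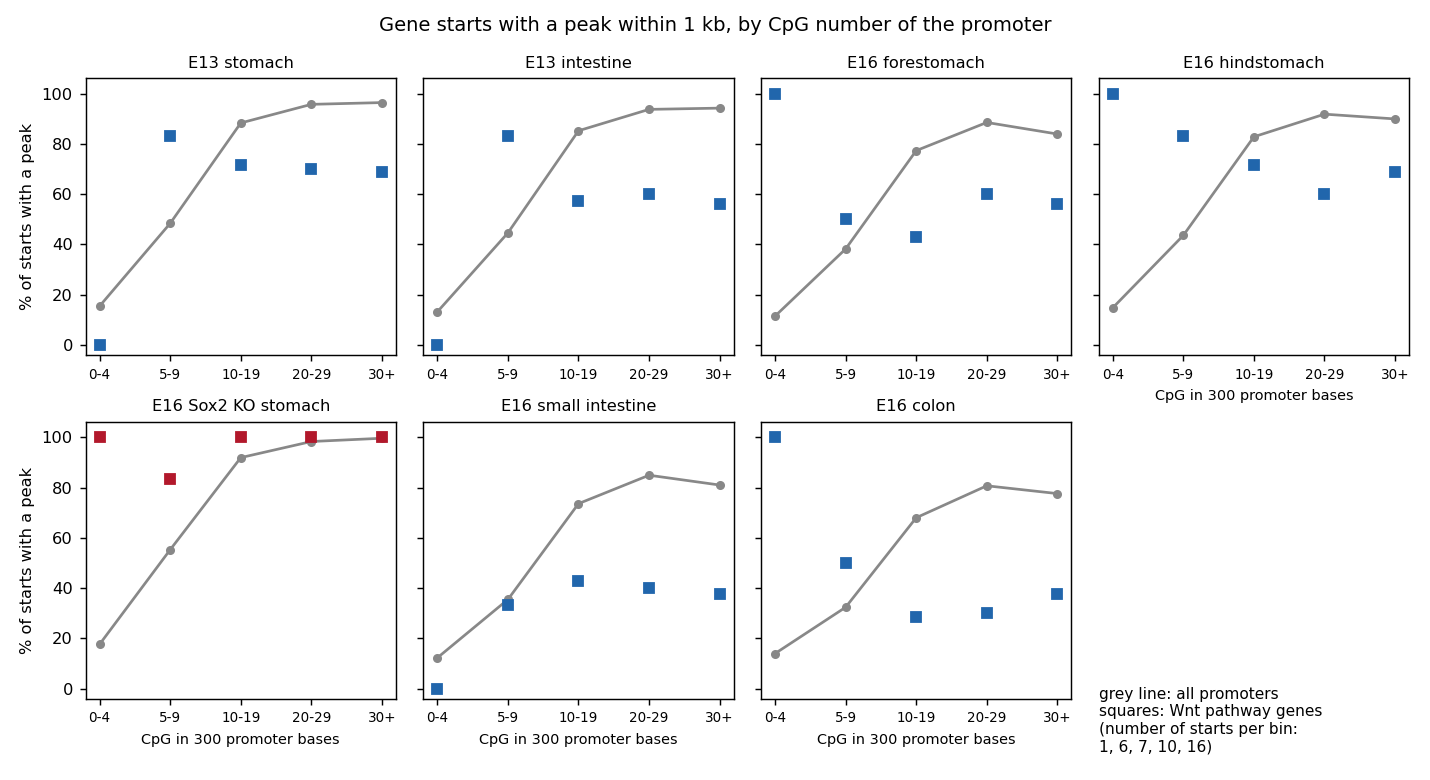
Share of gene starts with a peak within 1 kb (vertical axis, %) by the number of CpG in the 300 promoter bases (horizontal axis, 5 bins), 1 panel per library. The grey line is all starts and the squares are the Wnt gene starts (1, 6, 7, 10 and 16 starts per bin); from 10 CpG upwards the squares lie below the line in the 6 wild-type libraries and at 100% in the knockout (red).

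Regions were then compared between pairs of libraries. A gene was called towards a library when at least 3 more of its regions were found there only than in the other library only, and when log2 of the ratio of these counts, each plus 0.5, was at least 1. The background is the share of protein-coding genes called by the same rule in the same direction, among genes with at least 3 regions not shared by the 2 libraries. The 8 comparisons share libraries and are not independent of each other.

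**Figure D4:**
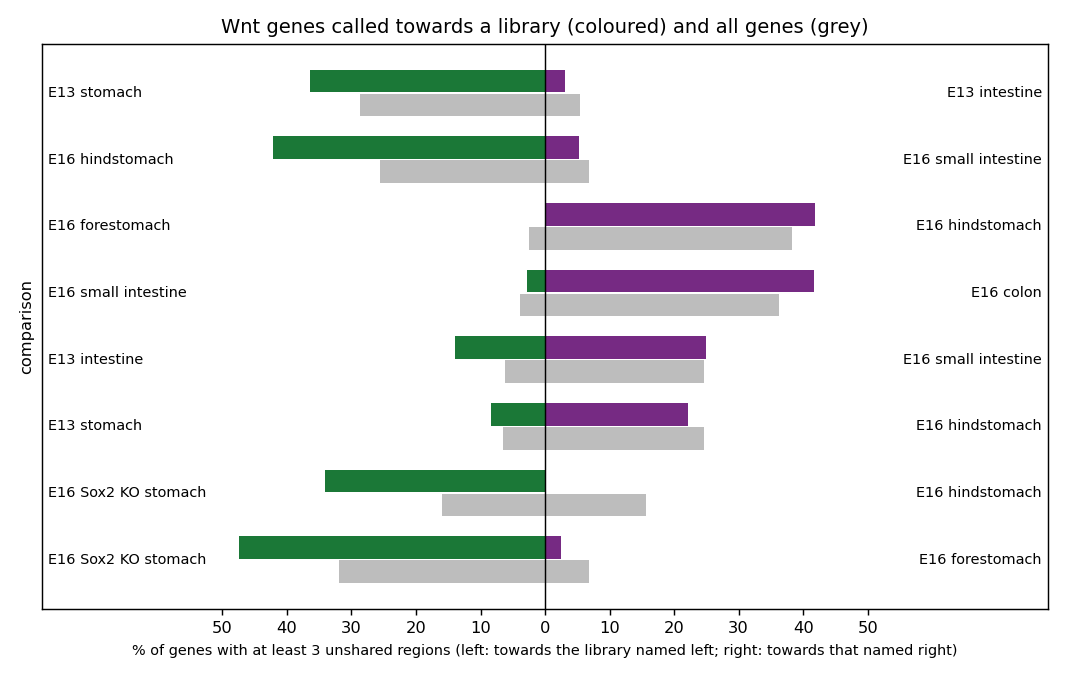
Share of genes called towards each library of 8 comparisons (horizontal axis, % of genes with at least 3 unshared regions), for the Wnt pathway genes (coloured bars) and all protein-coding genes (grey bars). Bars to the left count genes called towards the library named on the left. In the knockout against the hindstomach, 34.1% of Wnt genes were called towards the knockout and 0% towards the hindstomach, against 16% and 15.7% of all genes.

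Against the hindstomach, the knockout had 227 member regions of its own, the hindstomach 156, and 171 were shared. The knockout share of the unshared regions was 59.3% (54.3 to 64.1%), against 50.3% over all genes. Both lists are of similar length, with 107138 and 113760 peaks. The rule called 14 of 41 genes towards the knockout (34.1%, background 16%) and 0 towards the hindstomach (background 15.7%). With every list cut to its widest peaks at equal length, the counts were 176 and 113 (60.9%, against 52.6% over all genes). With regions near gene ends left out, they were 187 and 150 (55.5%, against 48.2%). In that setting 9 genes were called towards the knockout in place of 14 (23.7%, against 13.3% of all genes).

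The ligands carried most of this difference. The knockout had 87 ligand regions of its own and the hindstomach 32 (73.1%, 64.5 to 80.3%). Wnt7b, a ligand of epithelia, had 20 regions in the knockout, 10 in the hindstomach and 7 to 11 in the other 5 libraries; 14 were in the knockout and not the hindstomach, and 4 the reverse. Wnt11, a ligand of β-catenin-independent signalling, had 16 in the knockout, 9 in the hindstomach and 4 to 9 elsewhere. Wnt9a had 11 in the knockout, 4 in the hindstomach and 1 (small intestine) to 7 (E13 stomach) elsewhere. Wnt6 had 7 in the knockout and 1 in each wild-type stomach part, with 6 regions found in the knockout only and 0 the other way. For each of these 4 genes the knockout count was the highest of the 7 libraries. Wnt5b (5 against 4 unshared regions) and Wnt2 (2 against 3) were near balance. Wnt2b had the same 3 regions in both libraries.

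Of the receptors, Fzd7 (7 regions in the knockout only, 2 in the hindstomach only) and Fzd2 (5 and 1) were called towards the knockout. Lrp6 had 6 and 10 and Lrp5 10 and 6, and neither was called. Of the R-spondins, Rspo1 was called with 3 and 0, whereas Rspo2 had 6 and 6 and Rspo3 had 0 and 2. The antagonists were near balance, with 37 regions in the knockout only and 41 in the hindstomach only (47.4%). Sfrp2 was called towards the knockout (7 and 3), and Dkk2 (6 and 12), Sfrp1 (6 and 10) and Dkk1 (3 and 5) leaned towards the hindstomach without being called. Among the nuclear factors, Tcf7l1, the repressive TCF3 gene, had 14 and 5 and Tcf7 4 and 1, both called. Tcf7l2 had 14 and 19.

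The 19 ligand genes include 4 neighbouring pairs, and these pairs held much of the ligand difference. This grouping was made after the values were seen. Wnt6 and Wnt10a lie 6696 bases apart on chromosome 1, Wnt3a and Wnt9a 16097 bases apart on chromosome 11, Wnt10b and Wnt1 11650 bases apart on chromosome 15, and the bodies of Wnt9b and Wnt3 overlap by 1098 bases on chromosome 11. The 8 paired genes had 50 regions in the knockout, 26 in the E13 stomach, 21 in the small intestine, 20 in the hindstomach, 19 in the E13 intestine, 18 in the forestomach and 16 in the colon. The knockout was highest, or tied for highest, for all 8, against 35.0% of all genes with at least 3 regions. They had 35 regions in the knockout and not the hindstomach and 5 the reverse (87.5%, against 50.3% over all genes), and 6 of the 8 were called (background 16%). Since the grouping followed the values, these counts are a description. The other 11 ligands had 52 and 27 (65.8%), with Wnt7b and Wnt11 called. All 8 paired genes had a start peak in the knockout, against 3 in the hindstomach and 4 in the forestomach. Neighbours can share regions, so the 8 genes are not 8 separate observations.

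Against the forestomach, the knockout had 275 member regions of its own and the forestomach 111 (71.2%, 66.5 to 75.5%, against 61.2% over all genes), with 123 shared. The rule called 19 of 40 genes towards the knockout (47.5%, background 31.9%). Fzd9, a receptor gene with 5 regions in the forestomach and 2 in the knockout, was the 1 gene called the other way (2.50%, background 6.78%). The 19 were 11 ligands (Wnt3, Wnt3a, Wnt4, Wnt5a, Wnt6, Wnt7a, Wnt7b, Wnt9a, Wnt9b, Wnt11 and Wnt16), the receptors Fzd2, Fzd5, Fzd7 and Lrp5, the antagonists Dkk1 and Sfrp2, and Tcf7 and Tcf7l1. Both comparisons use the same knockout library. Wnt7b had 14 regions in the knockout only and 5 in the forestomach only, Tcf7l1 17 and 3, and Wnt6 6 and 0. Dkk1 had 7 and 1 here and 3 and 5 against the hindstomach, and Lrp5 13 and 3 here and 10 and 6 there.

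The knockout regions absent from both stomach parts were mostly absent from the other wild-type libraries as well. Of its 398 member regions, 212 were found in neither stomach part (53.3%, against 47% over all genes). Of those 212, 57 were found in the E13 stomach (26.9%, against 32.5%), 34 in the E13 intestine (16%, against 19.7%) and 17 in the E16 small intestine or colon (8.02%, against 8.45%). Neither E13 library held 143 of them (67.5%, against 60.9%). Wnt7b had 12 of the 212, of which 9 were in no other library; Tcf7l1 also had 12, of which 8 were. Wnt6 differed, since 3 of its 6 were found in the E13 stomach and 2 in the small intestine or colon. The knockout shared 181 member regions with the E13 stomach, 171 with the hindstomach, 128 with the E13 intestine, 123 with the forestomach, 83 with the small intestine and 71 with the colon. As a share of the regions found in either library that was 0.376, 0.309, 0.275, 0.242, 0.149 and 0.112. Over all genes the shares were 0.422, 0.330, 0.318, 0.283, 0.190 and 0.135, in the same order.

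In the other direction, 178 member regions were found in both stomach parts, and 70 of them (39.3%, 32.4 to 46.7%) were not found in the knockout, against 37.4% over all genes. The most absent regions were at Tcf7l2 (7 of 17) and Wif1 (7 of 10), followed by Sfrp1 (5 of 9), Dkk2 (4 of 6), Lrp6 (4 of 8) and Rspo2 (4 of 5). Wnt4 kept 5 of its 6 and Wnt11 lost 1 of its 7. Of 61 regions found in both stomach parts and in neither intestinal tissue at E16, 39 were found in the knockout (63.9%, 51.4 to 74.8%, against 59.9%). Of 33 regions found in the small intestine and colon and in neither stomach part, 3 were (9.09%, 3.14 to 23.6%, against 5.67%). Of 22 regions shared by both E13 libraries and absent from the 4 wild-type E16 tissues, 18 were found in the knockout (81.8%, 61.5 to 92.7%, against 72.6%), with Rspo2 holding 4 of the 22.

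At E13, the stomach had more Wnt gene regions than the intestine, by about the margin seen over all genes. The stomach had 148 member regions of its own, the intestine 80, and 116 were shared (64.9%, 58.5 to 70.8%, against 61.2% over all genes, which lies inside the interval). The rule called 12 of 33 genes towards the stomach (36.4%, background 28.6%): Wnt3a, Wnt4, Wnt7a, Wnt9a, Fzd3, Fzd4, Fzd7, Fzd10, Rspo4, Dkk1, Dkk2 and Tcf7l1. Wnt4, a ligand of epithelial differentiation, had 8 regions in the stomach and 1 in the intestine. Tcf7l1 had 19 and 9, with 11 found in the stomach only and 1 in the intestine only, and Dkk2 16 and 8. Lrp6, the Wnt coreceptor, was the 1 gene called towards the intestine (3.03%, background 5.40%), with 13 regions against 7. Start peaks differed little. Wnt4, Fzd9 and Rspo4 had one in the stomach and not the intestine (6.38%, against 5.04% of all genes), and Wnt5a, Wnt7a and Wnt8a the reverse (6.38%, against 2.44%). With equal list lengths, 5 genes were called towards the stomach (15.2%, against 17.8% of all genes).

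At E16, the hindstomach had more Wnt gene regions than the small intestine. The counts were 190 in the hindstomach only, 104 in the small intestine only and 137 shared (64.6%, 59.0 to 69.9%, against 58.9% over all genes). Of 38 genes, 16 were called towards the hindstomach (42.1%, background 25.5%) and 2 towards the small intestine (5.26%, background 6.84%). The antagonists Dkk1, Dkk2, Dkk3 and Sfrp2 were among the 16. Dkk2 had 17 regions in the hindstomach and 8 in the small intestine, and Dkk3 10 and 3, with 7 in the hindstomach only and 0 the reverse. Rspo3 had 5 and 1, Wnt11 9 and 4 and Tcf7l1 18 and 8. The 2 genes called the other way were Wif1 (13 and 18) and Wnt9b (2 and 6). The same tilt appeared at the starts, where 14 genes had a start peak in the hindstomach and not the small intestine (29.8%, against 9.44% of all genes), and Tcf7 alone the reverse (2.13%, against 2.88%). The 14 were Wnt2, Wnt2b, Wnt7b, Wnt9a, Fzd6, Fzd9, Fzd10, Lrp5, Rspo3, Rspo4, Dkk1, Dkk2, Sfrp4 and Lef1. With equal list lengths 9 genes were called towards the hindstomach (29%, against 17.5% of all genes), and the share of unshared regions was 57.8% (51.3 to 64.1%, against 52.1%). The mesenchymal markers had 69 regions in the hindstomach and 59 in the small intestine, and the epithelial markers 91 and 73. The part of either in these counts was not tested.

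Between the stomach parts, the hindstomach had the larger set. It had 149 member regions of its own, the forestomach 56, and 178 were shared (forestomach share 27.3%, 21.7 to 33.8%, against 32.8% over all genes). Of 31 genes, 13 were called towards the hindstomach (41.9%, background 38.2%) and 0 towards the forestomach (background 2.49%), so the calls were close to those of all genes. Dkk1, a secreted Wnt inhibitor, had 9 regions in the hindstomach and 1 in the forestomach, the lowest count of any library for this gene. Dkk2 had 17 and 8, Lrp6 16 and 8, Lrp5 13 and 7, Sfrp1 14 and 9 and Tcf7l2 35 and 22. The antagonists as a group had 9 regions in the forestomach only and 36 in the hindstomach only (20%, 10.9 to 33.8%), and the ligands 20 and 34 (37.0%, 25.4 to 50.4%). A start peak was found in the hindstomach and not the forestomach at 10 genes (21.3%, against 6.56%): Wnt5a, Wnt7a, Wnt7b, Fzd10, Lrp5, Lrp6, Rspo3, Dkk1, Sfrp4 and Sfrp5. Wnt1, Wnt4 and Rspo2 showed the reverse (6.38%, against 2.25%). This comparison depended on list length. With equal lists the unshared regions numbered 72 and 93 (43.6%, against 49.4% over all genes). Called were 2 genes towards the forestomach (7.14%, against 13.1% of all genes) and 3 towards the hindstomach (10.7%, against 14.1%). The parts were also isolated differently, with Dispase and with EDTA, and organ part and isolation cannot be told apart.

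Between the small intestine and the colon, the R-spondins stood furthest from balance of the 5 groups of genes. They had 2 regions in the small intestine only and 19 in the colon only (9.52%, 2.65 to 28.9%). Rspo3, whose protein sustains crypt stem cells, had 8 regions in the colon and 1 in the small intestine, Rspo2 had 11 and 5, and Rspo1 had 3 and 0. In no library did the regions of Rspo3 exceed the 8 of the colon, and 6 of those 8 were found in the colon alone. The whole set had 100 regions in the small intestine only, 167 in the colon only and 141 shared (37.5%, 31.9 to 43.4%, against 34.7% over all genes). Towards the colon 15 of 36 genes were called (41.7%, background 36.3%), and towards the small intestine Wnt9b alone (2.78%, background 3.84%). Fzd8, a receptor gene, had 12 regions in the colon and 5 in the small intestine, and Wif1 23 and 18. Start peaks did not follow these counts. The small intestine had 6 that the colon lacked (Wnt7a, Wnt9b, Wnt11, Lrp6, Sfrp5 and Tcf7; 12.8%, against 7.91%), and the colon 5 that the small intestine lacked (Wnt1, Wnt9a, Fzd6, Rspo4 and Dkk1; 10.6%, against 5.78%). Of the 4 R-spondins, Rspo4 had a start peak in the colon, and none had one in the small intestine. The direction turned with equal list lengths, to 105 regions in the small intestine only and 75 in the colon only (58.3%, 51 to 65.3%, against 51.1% over all genes).

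From E13 to E16 the intestine exchanged most of its Wnt gene regions, as it did its regions at all genes. The regions found at both stages were 0.214 of those found at either, against 0.223 over all genes. The intestine had 119 member regions at E13 only, 164 at E16 only and 77 at both (E13 share 42.0%, 36.4 to 47.9%, against 41.4% over all genes). Of 36 genes, 9 were called towards E16 (25.0%, background 24.6%): Wnt4, Wnt7a, Wnt9b, Fzd4, Rspo4, Dkk1, Sfrp1, Wif1 and Tcf7l2. Tcf7l2 had 15 regions at E13 and 32 at E16, Wif1 8 and 18, and Wnt4 1 and 8. Towards E13 the rule called 5 (13.9%, background 6.28%), namely Wnt9a, Wnt11, Rspo3, Dkk3 and Sfrp2. With genes within 20 kb the share called towards E13 was 6.06% (against 6.52% of all genes), and with equal list lengths 16.7% (against 11.5%). Rspo3 had 6 regions at E13 and 1 at E16, and Wnt11 8 and 4. The excess of regions at E16 depended on list length. With equal lists the set had 123 regions at E13 only and 132 at E16 only (48.2%, against 48.2% over all genes). Start peaks were lost at 14 genes (29.8%, against 11.4% of all genes): Wnt2, Wnt2b, Wnt8a, Wnt9a, Fzd6, Fzd10, Rspo2, Rspo3, Dkk1, Dkk2, Dkk3, Sfrp2, Sfrp4 and Lef1. Tcf7 alone gained one (2.13%, against 3.73%). Start peaks at mesenchymal markers went from 9 of 14 to 4 of 14, and their part in this loss was not tested. The E13 cells were sorted after trypsin and the E16 epithelium was released with EDTA, so stage and isolation cannot be told apart.

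In the stomach, 141 member regions were found at E13 only, 204 in the E16 hindstomach only and 123 in both (40.9%, 35.8 to 46.1%, against 41.8% over all genes). Of 36 genes, 8 were called towards the hindstomach (22.2%, background 24.7%): Wnt5b, Wnt8b, Lrp5, Lrp6, Dkk1, Sfrp1, Lef1 and Tcf7l2. Wnt6, Wnt9a and Fzd3 were called towards E13 (8.33%, background 6.49%). Tcf7l2 had 16 regions at E13 and 35 in the hindstomach, Sfrp1 6 and 14, and the coreceptor genes Lrp5 and Lrp6 had 5 and 13 and 7 and 16. The larger number of calls towards the hindstomach depended on list length. With equal lists the set had 138 regions at E13 only and 146 in the hindstomach only (48.6%, against 48.4% over all genes). Called were 5 genes towards E13 (14.3%, against 11.7% of all genes) and 4 towards the hindstomach (11.4%, below the share of all genes). Unlike in the intestine, start peaks were exchanged evenly. Wnt4, Rspo2, Dkk3 and Sfrp2 had one at E13 only (8.51%, against 7.02%), and Wnt5a, Wnt7a, Wnt7b and Lrp5 in the hindstomach only (8.51%, against 3.30%). The difference between the organs in this respect was not tested.

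Tcf7l2 and Wnt4 show how organ-specific regions were spread along a gene. Around Tcf7l2, 6 regions were found in the hindstomach, small intestine and colon and not in the forestomach, and none of these 6 was found in the knockout. Over the whole set 2 of 21 such regions were (9.52%, 2.65 to 28.9%), 1 at Dkk2 and 1 at Wif1, against 18.1% over all genes, so that most such regions were missing from the knockout over all genes too. A further 6 were found in both stomach parts and neither intestinal tissue, and 3 of them were found in the knockout. Around Wnt4, 5 regions belonged to both stomach parts and neither intestinal tissue, and all 5 were found in the knockout. As deposited and merged they were chr4:137207335-137207655, chr4:137212198-137212495, chr4:137231433-137231920 and chr4:137255639-137255908 before the gene, and chr4:137287173-137287672 within it. The second of them was the only Wnt4 region of the E13 intestine. The small intestine and colon shared 3 Wnt4 regions that no stomach part had, and the knockout had none of these 3. Dkk1 had 3 regions of the same kind as Tcf7l2. These 3 regions of the hindstomach, small intestine and colon lay 79949, 33522 and 31593 bases from the gene body, and the forestomach and the knockout lacked all 3.

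**Figure D5:**
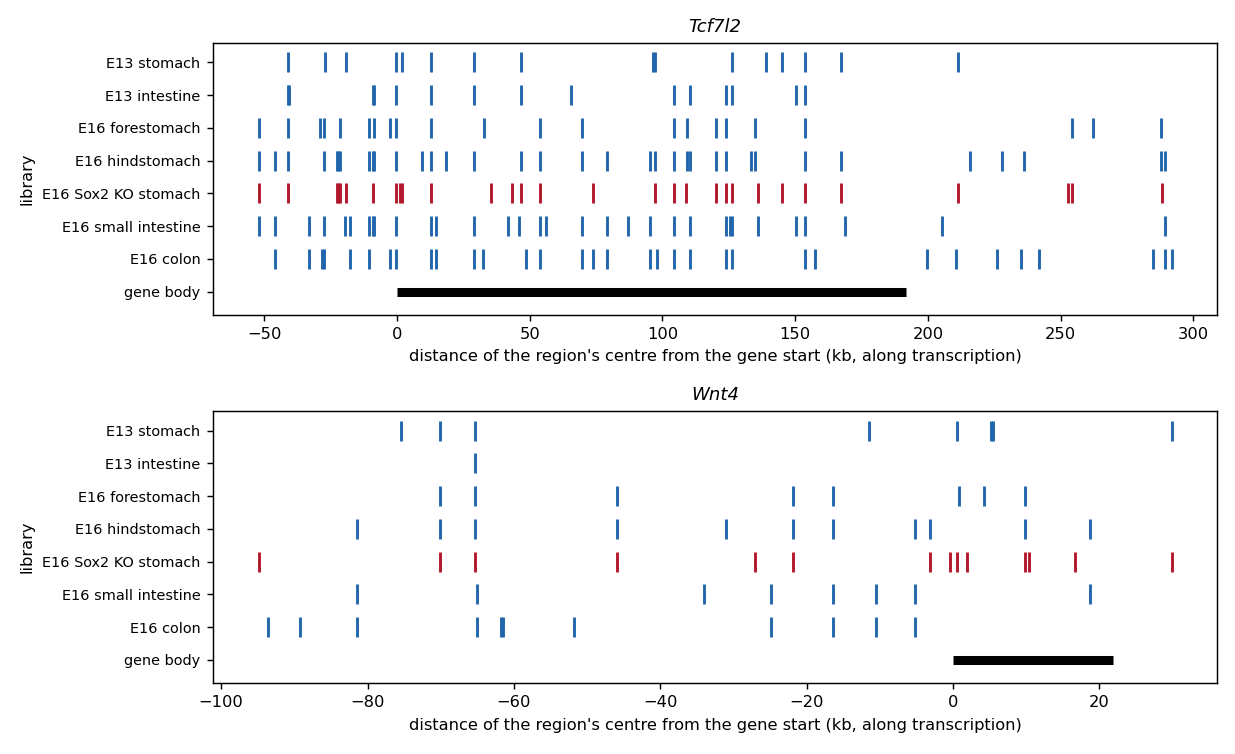
Positions of accessible regions around Tcf7l2 (upper panel) and Wnt4 (lower panel); the horizontal axis is the distance of each region's centre from the gene start in kb along transcription, each tick is 1 region, and rows are the libraries with the knockout in red. The hindstomach, small intestine and colon rows of Tcf7l2 hold 35, 32 and 33 ticks, and the E13 intestine row of Wnt4 holds 1.

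The 40 promoter stretches were searched on both strands for short motifs of factors that act in this tissue. The TCF/LEF motif CTTTGAT was found in 2 of 40 (5.00%), at Wnt5b and Wnt11, against 3.25% of 21045 promoters. The SOX motif CATTGT was found in 4 (10.0%, against 10.5%), at Wnt1, Wnt16, Lef1 and Tcf7l2. The caudal motif TTTATNG was found in 7 (17.5%, 8.75 to 31.9%, against 9.49%), the GATA motif AGATAA in 5 (12.5%, against 9.68%), the forkhead motif TGTTTAC in 1 (2.50%, against 3.03%) and the AP-1 motif TGANTCA in 1 (2.50%, against 7.04%). Each share lay within counting error of that of all promoters. None of the promoters of the 5 genes with a start peak in the knockout alone held the TCF/LEF or SOX letters. Wnt11 is not among these genes, but the match in it lay at its start at chr7:98835112. That start had a peak in the knockout alone, whereas the other Wnt11 start had peaks in 6 libraries. These are matches of letters in a short window, and regions away from the starts were not searched.

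A list of 51 other Wnt pathway genes, of which 49 were found in the annotation, was tabulated by the same rule. Against the hindstomach, 9 of 40 were called towards the knockout (Porcn, Sost, Rnf43, Ror2, Celsr1, Axin2, Nkd1, Bcl9l and Tle4; background 16%) and 3 towards the hindstomach (Wls, Ryk and Tnfrsf19; background 15.7%). Axin2 and Nkd1, feedback inhibitors that Wnt signalling itself switches on, each had 9 regions in the knockout only and 4 in the hindstomach only. Ror2, a receptor for WNT5A, had 23 and 9, and the corepressor gene Tle4 18 and 6. The hindstomach had more of Ryk (10 and 4) and of Tnfrsf19 (10 and 2), the latter listed here as a Wnt target gene. The other listed target genes were not called. With the knockout-only count first, Ascl2 had 3 and 2, Sp5 2 and 1, Ccnd1 3 and 1 and Myc 6 and 6. In the E13 stomach against the E13 intestine 16 of 35 were called towards the stomach (background 28.6%) and 2, Wls and Frzb, towards the intestine (background 5.40%). Lgr5, the R-spondin receptor that marks crypt stem cells, had 21 regions in the colon, 12 in the small intestine and 10 to 15 in the other 5 libraries. Of the 5 R-spondin receptor and ligase genes, Lgr4, Lgr5, Rnf43 and Znrf3 had start peaks in all 7 libraries, as 44.4% of all genes did. Lgr6 had none in the hindstomach, small intestine and colon.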

How the data were processed

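Each of the 7 libraries was given as a list of peaks with chromosome, start and end, and with no height, count or other score per peak; these deposited positions are the only values, and the sequencing depth behind them is unknown. The deposited lists held 81369 to 136859 peaks. Those on chromosome Y, which were left out, numbered 69 in the knockout and 178 and 187 in the E13 stomach and intestine. The wild-type E16 lists had 565 (forestomach) to 1111 (colon). All 47 genes lie on chromosomes 1 to 19. The part of embryo sex in counts at genes on chromosome X was not tested. Per the submitters' processing notes, cutadapt, Bowtie2 and MACS2 were used (versions, settings and any pooling not given in the sources used here), and the build is GRCm38 (mm10). The peak positions, which are not said to start from 0 or from 1, are printed as the authors deposited them.

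Peaks on chromosomes 1 to 19 and X that overlapped by at least 1 base were merged into regions, and a library had a region if any of its peaks fell in it. Each region was assigned to the closest protein-coding gene (RefSeq, GRCm38.p6) if its body lay within 100 kb, with ties settled by the closest gene end. Gene starts, strands and promoter sequences came from the RefSeq promoter table, which matched 32 of the 47 genes; for the other 15, either gene end served as start. A gene counted as called with an excess of at least 3 unshared regions and a log2 ratio, with 0.5 added to each count, of at least 1. With 1 library per group there is no test; 95% Wilson intervals cover counting error only, and regions of 1 gene are not independent. Counts were described beside the same counts over all protein-coding genes. Alternatives were merging peaks up to 100 bases apart, a 20 kb limit, equal list lengths, leaving out regions within 1 kb of gene ends, an excess of 2, and other definitions of a start peak. The use of genes of known strand alone was added after the data were seen, as were the CpG class and the ligand pairs. The member genes follow a rule that uses no measured value, but they and the lists were chosen with earlier results of these data known. Merging and assignment were tried on a few made-up peaks, and the call rule on simulated labels for the real numbers of regions per gene. The outcomes of these trials are not given here. Python 3.11.15, pandas 2.3.3, numpy 2.4.6, scipy 1.17.1 and matplotlib 3.10.9 were used.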

Additional observations from a re-analysis of the deposited data

How the results depend on the processing

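Each group was 1 library, so no replicate could be left out, and no paired analysis was possible because no group has a second library. Over the alternatives 158 of 193 values stayed close to the main value (equal to it or within 1.5 times, for counts of regions and of genes alike) and 35 moved. Equal list length moved 13 of 46 values, the 300 promoter bases 4 of 7 and the genes of known strand 3 of 7. With every list cut to its widest peaks at equal length, the colon had 175 member regions. Its own regions against the small intestine fell to 75, which turned the direction. Called were 5 genes towards the small intestine (17.9%, against 14.9% of all genes) and 2 towards the colon (7.14%, against 13.1%). The hindstomach had 93 of its own against the forestomach, with 2 genes called towards the forestomach (7.14%, against 13.1%) and 3 towards the hindstomach (10.7%, against 14.1%). The genes called numbered 5 towards the E13 stomach against the E13 intestine and 9 towards the hindstomach against the small intestine. Between the E13 stomach and the hindstomach, 5 were called towards the E13 stomach (14.3%, against 11.7%). Towards the hindstomach 4 were called (11.4%, below the share of all genes). Against the hindstomach 1 gene (2.70%, against 12.9%), and against the forestomach 0 genes (0%, against 12.9%), were called away from the knockout.

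With genes within 20 kb, the forestomach had 37 regions of its own against the hindstomach and 73 against the knockout, and the colon 105 against the small intestine. The calls were 2 towards the E13 intestine against the E13 stomach, 8 towards the colon, 2 towards E13 in the intestine and 1 towards the hindstomach against the knockout. Away from gene ends, 9 genes were called towards the knockout (23.7%, against 13.3%) and 1 towards the hindstomach (2.63%, against 18.3%). In the same setting 0 were called towards the forestomach against the knockout (0%, against 8.30%), and 1 towards the E13 stomach against the hindstomach (3.03%, against 5.90%). An excess of 2 gave 3 genes towards the E13 intestine, 3 towards the small intestine against the colon and 2 towards the hindstomach against the knockout. Shares over all genes were not computed for an excess of 2. Merging peaks up to 100 bases apart gave 1 gene towards the hindstomach against the knockout (2.44%, against 16%). A peak on the 300 promoter bases (or within 250 bases of either gene end where the strand was unknown) was found at 19 genes in the E13 intestine, 21 in the hindstomach, 11 in the small intestine and 10 in the colon, and at 39 in the knockout. The share over all genes was not computed for this window. The 32 genes of known strand gave 21, 22 and 13 in the E13 intestine, hindstomach and colon. In that last setting fewer genes were counted. For the others the cause was not tested. The lists give no depth, so a missing peak may be a closed site or a site under the detection limit.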
